A study of Homo sapiens with 16 samples.

Results

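Cadherins are the membrane proteins that hold cells to their neighbours at adherens junctions. The 9 cadherin genes described here are *CDH1*, *CDH2*, *CDH3*, *CDH4*, *CDH5*, *CDH6*, *CDH11*, *CDH13* and *CDH16*, taken by symbol from a table of 25369 genes, and all 9 were found in it. The group was chosen by the measured levels of *CDH6*, whose deep fall under a combination of drugs in 1 of 2 thyroid carcinoma lines, unlike that in the other, was already known from these data. For *CDH6* the comparisons with the combination, the interaction of the drugs and the difference between the lines in the response to the combination are therefore given as a description, with no test.

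Outside the cell, classical cadherins bind each other through calcium-dependent repeats, and inside it their tails bind p120 catenin and beta-catenin, which links them to actin through alpha-catenin. Type I cadherins include E-cadherin (*CDH1*), N-cadherin (*CDH2*), P-cadherin (*CDH3*) and R-cadherin (*CDH4*), and type II cadherins include K-cadherin (*CDH6*), the osteoblast cadherin *CDH11* and, by many classifications, VE-cadherin of endothelium (*CDH5*). Not every gene here is a classical cadherin in the strict sense, because *CDH13* encodes T-cadherin, which has a lipid anchor in place of a membrane span and tail, and *CDH16* encodes the kidney and thyroid cadherin of the 7D type, which has a short tail that does not bind beta-catenin. Normal thyroid follicles express E-cadherin and *CDH16*, and thyroid carcinomas are known for losing E-cadherin and for expressing N-cadherin and *CDH6*.

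TPC1 and K1 are established human papillary thyroid carcinoma lines with wild type p53. Cells were treated for 24 h with 0.2% DMSO as the vehicle, with 10 µM nutlin (Nutlin-3a, which frees p53 from MDM2), with 25 µM GSK2830371 (an inhibitor of the phosphatase PPM1D) or with both drugs, called the combination below. Polyadenylated RNA was sequenced in 2 libraries per line and treatment, 16 in all, with 30789887 to 76648552 counted reads per library in TPC1 and 28888686 to 37161241 in K1. TPC1 was grown in RPMI and K1 in DMEM, so line and medium cannot be told apart. In TPC1 the libraries are named by the replicate numbers 1 and 3 of the count columns, and in K1 by 1 and 2.

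Levels are given in CPM, which are counts scaled to the effective size of each library, and levels of different genes are compared only as CPM per kb of the longest annotated transcript. Testing needed more than 0.1 CPM in 2 or more libraries of the line, which holds for 6 of the 9 genes in TPC1 (not for *CDH1*, *CDH11* and *CDH13*) and for 6 in K1 (not for *CDH1*, *CDH5* and *CDH16*). A gene is called raised or lowered where its change exceeds 1.5-fold and the adjusted p is below 0.05, and p comes from edgeR's quasi-likelihood test over all 15273 genes tested in TPC1, 15900 in K1 or 16738 over both lines, with Benjamini-Hochberg adjustment. Values after ± are standard errors of log2 fold changes. Comparisons with DMSO share the DMSO libraries of a line. The study describes its replicates as prepared independently. With 2 libraries per group, p-values rest on the spread within groups, pooled over all groups of a fit and drawing on other genes. A group with a wider spread therefore gets no wider error of its own.

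Markers of thyroid follicular cells were partly present. The transcription factors *PAX8* (298 to 470 CPM in TPC1 and 742 to 838 in K1) and *FOXE1* were found in every library of both lines, whereas *TSHR* had 0 counts in all 16 libraries and *NKX2-1* had 0 in TPC1 and at most 10 in K1. Of 5 endothelial markers, 3 in TPC1 and 2 in K1 had at most 3 counts in every library. Of the rest, *KDR* had 99 to 283 counts (3.03 to 7.55 CPM), *VWF* 10 to 27 and *TEK* 1 to 7 in K1. In TPC1, *TEK* had 10 to 88 counts and *VWF* 0 to 6. Among leukocyte markers, *PTPRC* had at most 2 counts and *LYZ* at most 7. The nutlin target *CDKN1A* ran from 125 to 13539 CPM over the TPC1 libraries and from 109 to 1552 over those of K1, lowest in both lines under DMSO.

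The lines differed in which cadherins they expressed. Under DMSO, the TPC1 libraries held most *CDH4* (18.7 CPM per kb, mean of 2 libraries), followed by *CDH2* (5.40), *CDH6* (2.50) and *CDH16* (0.53), and the ranges of these 4 genes did not overlap. In K1 the order was *CDH6* (107 CPM per kb), *CDH2* (25.2), *CDH13* (20.6), *CDH4* (4.69) and *CDH11* (4.05), and only the levels of *CDH4* (4.45 and 4.93) and *CDH11* (3.88 and 4.21) lay so close that their order is not resolved beyond the spread of the libraries. *CDH6* made up 62.5% and 69.0% of the summed CPM per kb of the 9 genes in the K1 DMSO libraries and 9.14% and 9.23% in those of TPC1, where *CDH4* made up 68.3% and 69.0%. In the combination libraries the share of *CDH6* was 36.0% to 42.3% in K1 and 0.141% to 0.203% in TPC1, and that of *CDH4* in TPC1 was 87.9% to 91.9%.

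**Figure D1:**
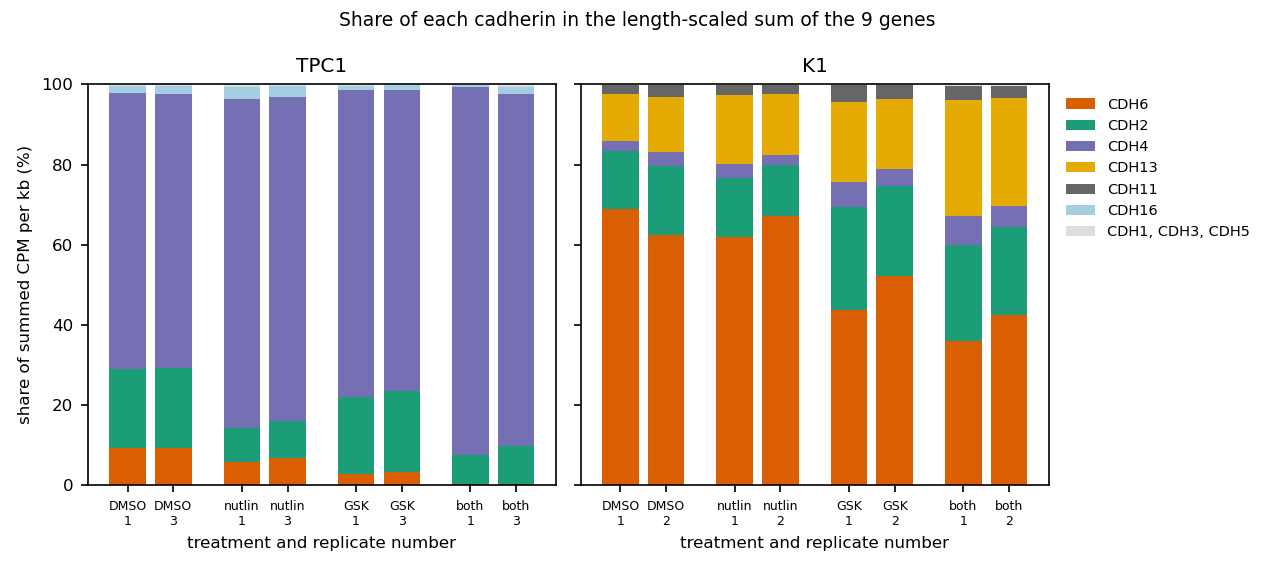
Stacked bars give, for each library of TPC1 (left) and K1 (right), the share in percent of each cadherin in the summed CPM per kb of the 9 genes, with *CDH1*, *CDH3* and *CDH5* joined. *CDH4* takes the largest part of every TPC1 bar, and *CDH6* the largest part of every K1 bar, where its part shrinks from 62.5% to 69.0% under DMSO to 36.0% to 42.3% under both drugs.

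E-cadherin was missing from both lines. *CDH1* had 0 to 2 counts per library, 4 in all 8 TPC1 libraries together and 5 in those of K1, at or under the 3 counts that a value of 0 would still allow (0.0382 to 0.101 CPM in TPC1 and 0.0800 to 0.103 in K1, for counting error only). It was too low to be tested in any comparison. *CDH5* stayed between 0 and 7 counts per library in TPC1 and 0 and 1 in K1.

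Under DMSO, 5 genes were raised and 2 lowered in K1 against TPC1 out of 8 tested, where 25% of all tested genes were raised and 21.2% lowered (46.2% called), so many genes separate these lines. *CDH6* had 1053 and 771 CPM in K1 against 23.1 and 19.6 in TPC1, a log2 difference of 5.42 ± 0.214 (adjusted p = 1.1e-12 in edgeR). These DMSO libraries also entered the choice of *CDH6*, which is 1 of the 5 raised genes. *CDH2* was also raised in K1, with 103 and 99.5 CPM against 23.1 and 20.2 in TPC1 (log2 difference 2.23 ± 0.0780, adjusted p = 2.7e-13 in edgeR), and *CDH4* was lowered, with 29.7 and 32.9 CPM against 135 and 115 (−1.99 ± 0.139, adjusted p = 1.8e-09 in edgeR).

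Another 3 genes were almost confined to 1 line. *CDH11* had 2032 counts in the K1 DMSO libraries and 0 in those of TPC1, which puts it at least 1015-fold higher in K1, with a floor of 3 counts over the group. *CDH13* had 11817 counts against 2, a ratio of 8852 with a 95% counting interval of 2450 to 73105. *CDH16* went the other way, with 204 counts in TPC1 against 3 in K1, a ratio of 45.4 (15.3 to 222), and its level in TPC1 was low at 1.88 and 1.86 CPM. These intervals cover counting error only. *CDH3* was raised in K1 from 0.238 and 0.392 CPM to 0.705 and 0.933 (log2 difference 1.30 ± 0.432, adjusted p = 0.0141 in edgeR), but with the replicate number as a block the value was 1.09 and the call was lost (adjusted p = 0.0562 in edgeR), and it was also lost without DMSO replicate 2 of K1 (1.08) or DMSO replicate 1 of TPC1 (1.06).

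*CDH6* (chromosome 5, 31193793 to 31329253 on the plus strand of GRCh37) codes for a type II cadherin of developing kidney and neural crest that many renal, ovarian and thyroid carcinomas express. In TPC1 it had 23.1 and 19.6 CPM under DMSO, 12.8 and 14.2 under nutlin, 7.31 and 7.95 under GSK2830371, and 0.477 and 0.526 under the combination, the last from 17 and 31 counts. None of the 4 groups overlapped with another, and the step to the combination was the widest. In bulk RNA, fewer cells that express a gene and less RNA per cell cannot be told apart.

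Each drug alone lowered *CDH6* in TPC1. Under nutlin its log2 fold change was −0.69 ± 0.114 (adjusted p = 0.00075 in edgeR), which is rank 2364 by size among 2752 lowered genes, so this fall is small beside those of most other lowered genes. It was −0.55 without DMSO replicate 1, which is under the 1.5-fold needed for a call. Under GSK2830371 it was −1.48 ± 0.118 (adjusted p = 0.0012 in edgeR). The DMSO libraries of both comparisons also entered the choice of *CDH6*, so these p-values are not independent of that choice. All libraries of these groups also enter the interaction given below.

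With both drugs the *CDH6* level of TPC1 was 42.7-fold lower than under DMSO, a log2 fold change of −5.42 ± 0.167, for which no test is given. It was −4.73 ± 0.170 against nutlin and −3.94 ± 0.174 against GSK2830371. The sum of the log2 changes under each drug falls short of this by the interaction of −3.25 ± 0.215. Leaving out any 1 library kept the change against DMSO between −5.54 and −5.28 and the interaction between −3.39 and −3.13.

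**Figure D2:**
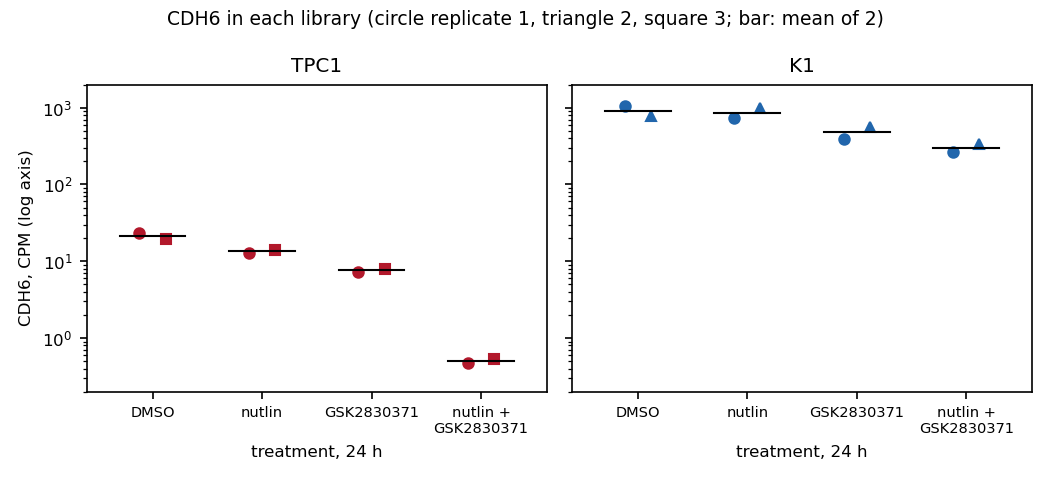
*CDH6* level in CPM, on a log axis, in each library of TPC1 (left) and K1 (right) by treatment, with circles for replicate 1, triangles for 2, squares for 3 and a line at the mean of 2 libraries. The TPC1 points step down from 23.1 and 19.6 CPM under DMSO to 0.477 and 0.526 under both drugs, while those of K1 stay between 264 and 1053 CPM.

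In K1, where *CDH6* was the leading cadherin, it had 1053 and 771 CPM under DMSO, 740 and 975 under nutlin, 384 and 565 under GSK2830371, and 264 and 339 under the combination. The nutlin and DMSO libraries overlapped, and every library with GSK2830371, alone or combined, lay below all of them. GSK2830371 alone lowered the gene (log2 fold change −0.94 ± 0.181, adjusted p = 0.0031 in edgeR), against DMSO libraries that also entered the choice of *CDH6*. For nutlin alone the value was −0.09 ± 0.179 (adjusted p = 0.76 in edgeR), and it turned to 0.15 without DMSO replicate 1 and to 0.096 without nutlin replicate 1, so its sign depended on single libraries.

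The combination left *CDH6* in K1 3.02-fold lower than DMSO (log2 fold change −1.60 ± 0.184, no test), at −1.51 ± 0.183 against nutlin and −0.65 ± 0.181 against GSK2830371. The last value was −0.35 without GSK2830371 replicate 2. The interaction was −0.56 ± 0.254, and it ran from −0.26 without GSK2830371 replicate 2 to −0.82 without GSK2830371 replicate 1. By these values the fall in K1 followed GSK2830371 with a smaller further step, and *CDH6* under the combination in K1 (264 and 339 CPM) was still above its level in untreated TPC1 (23.1 and 19.6).

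The response of *CDH6* to nutlin was 0.56 ± 0.263 log2 units less negative in K1 than in TPC1 (adjusted p = 0.124 in edgeR) and that to GSK2830371 was 0.53 ± 0.267 less negative (adjusted p = 0.286 in edgeR) and neither difference was called. The size of both differences depended on single libraries, and both use DMSO libraries that also entered the choice of *CDH6*. The value for nutlin ran from 0.35 to 0.80 with 1 library left out and was called without DMSO replicate 1 of K1 (0.80, adjusted p = 0.0429 in edgeR), and that for GSK2830371 ran from 0.22 without GSK2830371 replicate 2 of K1 to 0.78 without replicate 1. With no filter on low counts the adjusted p in edgeR was 0.0028 for nutlin and 0.0197 for GSK2830371, at differences still below 1.5-fold. For the combination against DMSO the lines differed by 3.79 ± 0.376 log2 units, and for the combination against nutlin by 3.23 ± 0.386, both as a description with no test.

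*CDH2* (chromosome 18, 25512843 to 25757910 on the minus strand of GRCh37) codes for N-cadherin, the cadherin of neurons, muscle and many invasive carcinomas. In TPC1 it had 23.1 and 20.2 CPM under DMSO, 9.07 and 9.21 under nutlin, 23.1 and 24.1 under GSK2830371, and 11.6 and 11.5 under the combination. The nutlin libraries and the combination libraries were all below the other 4, whose groups overlapped. Its log2 fold change was −1.28 ± 0.0985 under nutlin (adjusted p = 5.5e-06 in edgeR), −0.93 ± 0.0964 under the combination (adjusted p = 2.6e-05 in edgeR) and −1.06 ± 0.0963 for the combination against GSK2830371 (adjusted p = 1.4e-05 in edgeR). For GSK2830371 alone it was 0.13 ± 0.0930 (adjusted p = 0.477 in edgeR).

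Against nutlin, the combination had slightly more *CDH2* in TPC1 (log2 fold change 0.34 ± 0.101, adjusted p = 0.0341 in edgeR), short of 1.5-fold, and its interaction was 0.22 ± 0.137 (adjusted p = 0.376 in edgeR). In this line the lowest *CDH2* libraries were those with nutlin alone and the lowest *CDH6* libraries those with both drugs.

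In K1 the *CDH2* level was 103 and 99.5 CPM under DMSO, 83.2 and 86.9 under nutlin, 106 and 114 under GSK2830371, and 82.8 and 83.1 under the combination. As in TPC1, the libraries with nutlin, alone or combined, were below the other 4, and the log2 fold changes of *CDH2* were −0.25 ± 0.0558 for nutlin (adjusted p = 0.0039 in edgeR) and −0.29 ± 0.0558 for the combination (adjusted p = 0.00089 in edgeR), both below 1.5-fold. The difference between the lines was itself tested, in lines where *CDKN1A* and *MDM2* also responded less to nutlin in K1. Nutlin lowered *CDH2* by 0.99 ± 0.111 log2 units less in K1 than in TPC1 (adjusted p = 4.7e-06 in edgeR), and the combination by 0.62 ± 0.109 less (adjusted p = 0.00028 in edgeR). For the combination this is just past 1.5-fold, and it was 0.52 without DMSO replicate 1 and 0.58 without combination replicate 3 of TPC1, under that limit.

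The region upstream of *CDH2* is shown because the gene is the member with a tested difference between the lines and because repressors of the Snail and ZEB families are known to act on cadherin promoters. RefSeq promoters matched *CDH2* and *CDH4*, 2 of the 9 genes. The 250 bases before the start of *CDH2* lie at chr18:28177131-28177380 on the minus strand of GRCh38.p14, another build than that of the counts, and hold 66.0% G and C against a median of 58.0% over all promoters of the same length. The capitals mark the single match to a GC box, searched as GGGCGG on both strands, which 42.6% of 35116 promoters also hold.
*CDH2* upstream region: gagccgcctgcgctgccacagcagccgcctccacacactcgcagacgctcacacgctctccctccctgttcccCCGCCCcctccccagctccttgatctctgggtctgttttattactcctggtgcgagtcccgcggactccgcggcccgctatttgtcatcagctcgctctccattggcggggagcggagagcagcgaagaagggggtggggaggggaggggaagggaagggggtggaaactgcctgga
The letters CACCTG, the E-box bound by Snail and ZEB proteins, were not found on either strand of this window, and neither was TTTGAA, the core of the cell cycle homology region. Of all promoters in windows of this length, 17.5% and 13.3% held them.

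*CDH4* (chromosome 20, 59827317 to 60515673 on the plus strand of GRCh37) codes for R-cadherin, which was first known from retina and was the leading cadherin of TPC1. It had 135 and 115 CPM there under DMSO, 145 and 133 under nutlin, 153 and 147 under GSK2830371, and 243 and 178 under the combination. Both combination libraries were above the other 6, though far apart from each other. *CDH4* was raised by the combination against DMSO (log2 fold change 0.73 ± 0.149, adjusted p = 0.0022 in edgeR) and against nutlin (0.61 ± 0.149, adjusted p = 0.0165 in edgeR). Without combination replicate 1 these values were 0.48 and 0.36 and neither was called, and the second call was also lost without nutlin replicate 1 (0.68, adjusted p = 0.0594 in edgeR) or nutlin replicate 3 (0.54, adjusted p = 0.115 in edgeR). Against GSK2830371 alone the combination gave 0.46 ± 0.149 (adjusted p = 0.0248 in edgeR), under 1.5-fold.

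The same gene in K1 had 29.7 and 32.9 CPM under DMSO, 31.3 and 28.7 under nutlin, 42.7 and 37.6 under GSK2830371, and 41.7 and 32.9 under the combination. GSK2830371 alone gave a log2 fold change for *CDH4* of 0.36 ± 0.104 (adjusted p = 0.0284 in edgeR), short of 1.5-fold, and the combination 0.25 ± 0.104 (adjusted p = 0.0677 in edgeR). The combination raised *CDH4* by 0.50 ± 0.191 log2 units less in K1 than in TPC1 (adjusted p = 0.0471 in edgeR), again under the size for a call.

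*CDH13* and *CDH11* were well above the floor in K1 only. T-cadherin (*CDH13*), a receptor for adiponectin and low density lipoprotein, had 167 and 158 CPM under DMSO, 192 and 203 under nutlin, 163 and 172 under GSK2830371, and 196 and 199 under the combination, so the 4 libraries with nutlin were above the other 4. The log2 fold change of *CDH13* was 0.29 ± 0.0552 for nutlin (adjusted p = 0.0014 in edgeR) and 0.28 ± 0.0551 for the combination (adjusted p = 0.00095 in edgeR), both small and below 1.5-fold.

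*CDH11*, a cadherin of mesenchyme and bone, had 26.7 and 29.0 CPM under DMSO, 22.6 and 25.4 under nutlin, 29.3 and 30.7 under GSK2830371, and 21.3 and 19.97 under the combination. Its lowest libraries were those with both drugs, at a log2 fold change of −0.43 ± 0.0799 against DMSO (adjusted p = 0.00062 in edgeR) and −0.54 ± 0.0804 against GSK2830371 (adjusted p = 0.00013 in edgeR), a 1.45-fold decrease and so just short of a call. In TPC1 the 8 libraries together held 1 count of *CDH11* and 6 of *CDH13*.

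**Figure D3:**
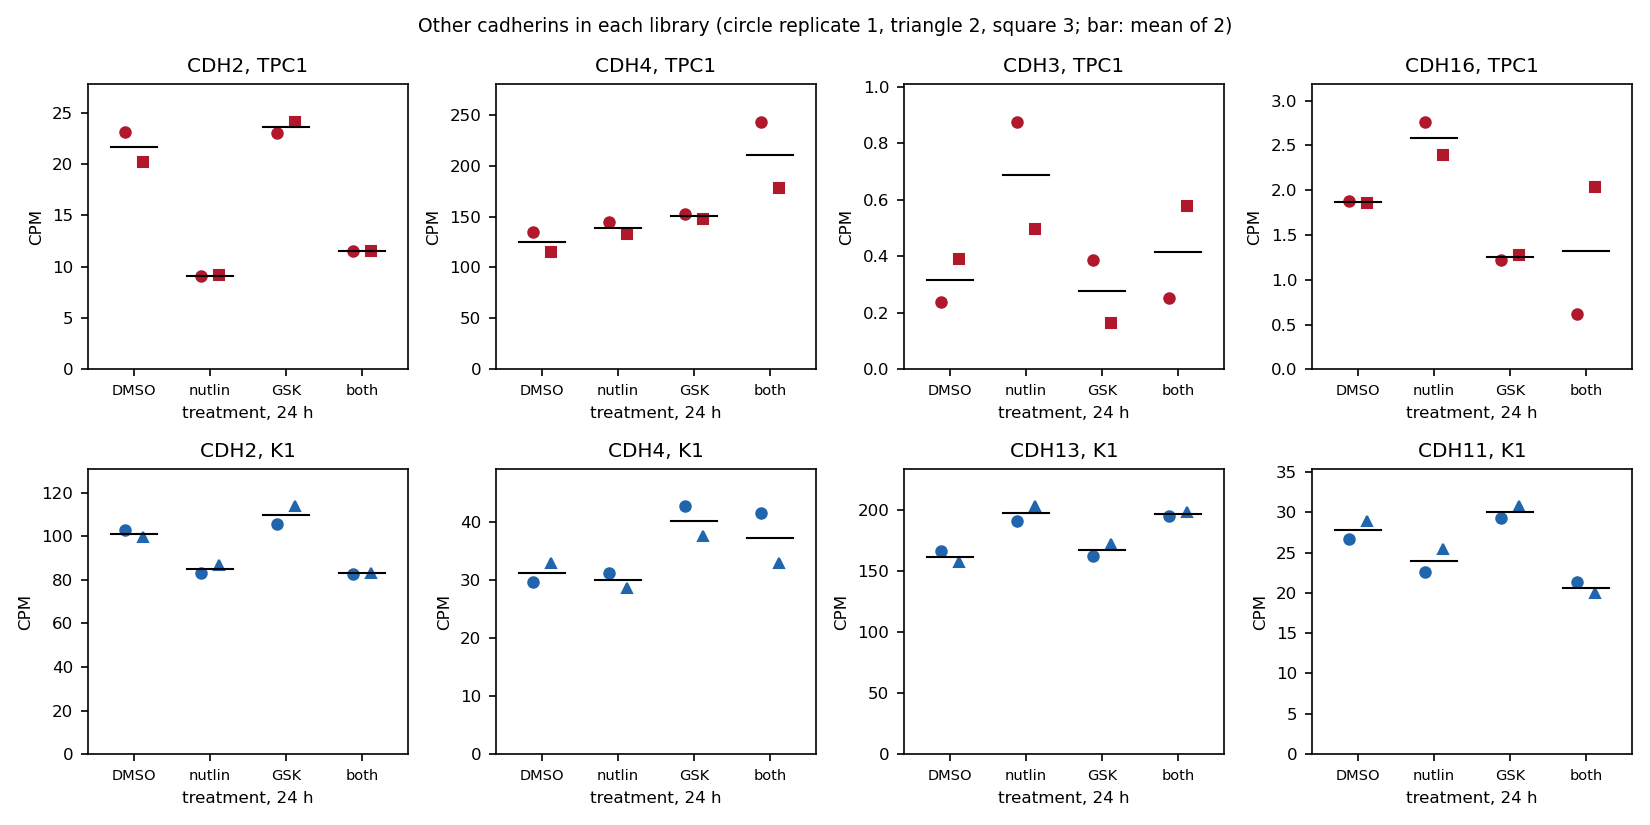
Level in CPM, from 0, of *CDH2*, *CDH4*, *CDH3* and *CDH16* in TPC1 (top) and of *CDH2*, *CDH4*, *CDH13* and *CDH11* in K1 (bottom) in each library by treatment, with circles for replicate 1, triangles for 2, squares for 3 and a line at the mean of 2 libraries. *CDH2* of TPC1 is lower in the 4 libraries with nutlin (9.07 to 11.6 CPM) than in the other 4 (20.2 to 24.1), and *CDH13* of K1 is highest in those with nutlin (192 to 203).

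P-cadherin (*CDH3*), found in basal layers of epithelia, was low everywhere. It ran from 9 to 34 counts per library in TPC1 (0.166 to 0.877 CPM) and from 25 to 44 in K1 (0.705 to 1.32 CPM). No comparison of treatments called it, and the standard errors of its log2 fold changes against DMSO were 0.536 to 0.597 in TPC1 and 0.267 to 0.281 in K1. In K1 its highest value, 0.59 under the combination, did not pass (adjusted p = 0.0912 in edgeR), so a change near 1.5-fold was not detectable at this depth.

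*CDH16* of TPC1 had 1.88 and 1.86 CPM under DMSO, 2.76 and 2.39 under nutlin, 1.22 and 1.27 under GSK2830371, and 0.618 and 2.04 under the combination, from 22 and 120 counts in the last. The combination libraries thus spanned all but the nutlin level, and no treatment was called (adjusted p from 0.138 to 0.790 in edgeR over the 5 comparisons between treatments). In K1, *CDH16* had 0 to 3 counts per library. *CDH5* was called raised in TPC1 for the combination against GSK2830371 on 11 counts against 2, a ratio of 6.52 with a counting interval of 1.42 to 60.5. That call was lost with the replicate number as a block (log2 fold change 2.52, adjusted p = 0.0512 in edgeR), and it is not resolved at this depth. The endothelial markers of TPC1 summed to 1.49 to 1.63 CPM under the combination against 0.388 to 0.535 under GSK2830371, with most of it from *TEK* and *CLDN5* at 0, and their part in the *CDH5* value was not tested.

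The counts for each drug alone, and those between the lines out of 8 genes, include *CDH6*, by whose levels the group was chosen. They therefore do not measure the cadherins as a group. Counted over the tested genes, nutlin lowered 2 cadherins in TPC1 (*CDH2* and *CDH6*) out of 6 and raised 0, against 18% of all genes lowered and 17.5% raised (35.5% called). By edgeR 3 of the 6 had an unadjusted p under 0.05, and DESeq2 likewise called 2 lowered and 0 raised. GSK2830371 lowered 1 of 6 (*CDH6*, the gene of the choice, and no other) against 0.681% of all genes and raised 0 against 0.72% (1.4% called), with 1 unadjusted p under 0.05 by edgeR and the same calls by DESeq2. This background is itself unsteady, since its 104 lowered genes were 8 without GSK2830371 replicate 3, 17 without GSK2830371 replicate 1 and 241 with the replicate number as a block. The combination against DMSO, leaving out *CDH6*, raised 1 of 5 (*CDH4*) and lowered 1 (*CDH2*), against 22.5% and 21.7% of all genes (44.2% called), which is near the background. The median log2 fold change of these 5 was 0.38, and that of all genes 0.0035.

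Against nutlin the combination raised 1 of 5 in TPC1 (*CDH4*, 6.46% of all genes) and lowered 0 (5.66%, and 12.1% called either way), with 3 unadjusted p under 0.05 by edgeR and the same calls by DESeq2. With the replicate number as a block, 1 was lowered, *CDH16*. Against GSK2830371 it raised 1 of 5 (*CDH5*, 19.5%) and lowered 1 (*CDH2*, 19%, and 38.5% called either way), and with the block or by DESeq2 it raised 0. The interaction called 0 of 5 in either direction, against 2.82% raised and 3.5% lowered (6.32% called), with 1 unadjusted p under 0.05 by edgeR, that of *CDH5*, and 0 calls by DESeq2. With the block it raised 1, again *CDH5*.

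In K1, GSK2830371 lowered 1 of 6 cadherins (again only *CDH6*, the gene of the choice) against 1.5% of all genes and raised 0 against 0.736% (2.23% called), with 2 unadjusted p under 0.05 by edgeR and the same calls by DESeq2. Here the 238 lowered genes were 93 without GSK2830371 replicate 1 and 518 without GSK2830371 replicate 2. Nutlin called 0 of 6 (3.84% raised, 5.43% lowered and 9.27% called among all genes), although by edgeR 3 had an unadjusted p under 0.05, and DESeq2 also called 0. Leaving out *CDH6*, the combination called 0 of 5 against DMSO (7.62% of all genes raised, 8.09% lowered and 15.7% called), against nutlin (1.16%, 1.52% and 2.68%) and against GSK2830371 (6.3%, 6.75% and 13.1%), and so did the interaction (1.79%, 0.654% and 2.44%). Unadjusted p-values under 0.05 by edgeR numbered 5, 2, 3 and 1 in these comparisons, and DESeq2 called 0 in each. Between the lines, 1 of 8 cadherins (*CDH2*) had a higher response to nutlin in K1 and 0 a lower one, against 8.73% and 10.5% of all genes (19.2% called). For the combination against DMSO the same held for 1 of 7 (*CDH2*) and 0, against 11.9% and 13.8% (25.7% called), and DESeq2 gave the same counts in both. The response to GSK2830371 differed for 0 of 8 (0.597% higher, 1.58% lower and 2.18% called among all genes), with 0 unadjusted p under 0.05, and that to the combination against nutlin for 0 of 7 (2.56% each way and 5.11% called), with 1, both by edgeR and with 0 calls by DESeq2.

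**Figure D4:**
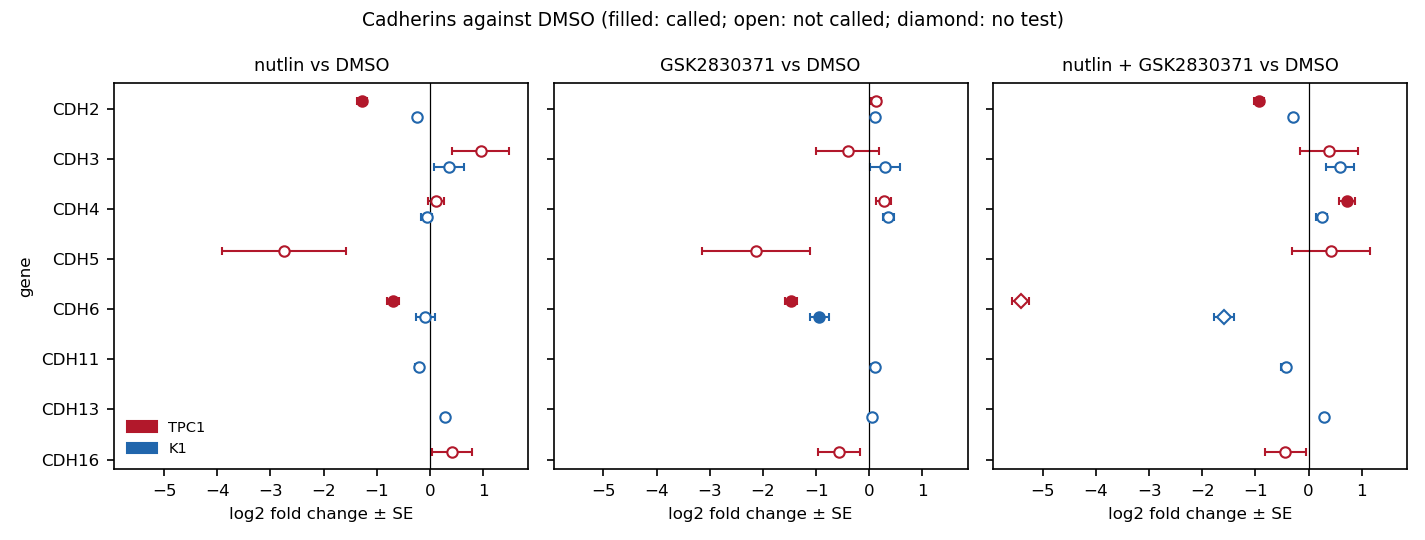
Log2 fold changes with standard errors of the tested cadherins against DMSO for nutlin (left), GSK2830371 (middle) and both drugs (right), in TPC1 (red) and K1 (blue). Filled circles are called, open circles are not, and open diamonds mark *CDH6* under both drugs, which was not tested and stands at −5.42 in TPC1 and −1.60 in K1.

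Beta-catenin (*CTNNB1*) ran from 402 to 521 CPM over the TPC1 libraries and from 419 to 484 over those of K1, and alpha-catenin (*CTNNA1*) from 301 to 426 and from 368 to 454. Neither was called against DMSO under any treatment, and nor was p120 catenin (*CTNND1*). The lowest value of *CTNNA1* was −0.44 ± 0.0699 under the combination in TPC1 (adjusted p = 0.00045 in edgeR). *CTNND1* was lowered by the combination against nutlin in TPC1 (−0.63 ± 0.105, adjusted p = 0.0030 in edgeR).

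Of 15 catenins and junction partners, 13 were tested in each line, and in TPC1 the combination raised 3 and lowered 3 against DMSO, which is near the 22.5% and 21.7% of all genes, while in K1 it raised 2 and lowered 0, against 7.62% and 8.09%. *ARVCF*, a catenin of the p120 family, had 5.28 and 5.26 CPM under DMSO and 59.4 and 54.8 under the combination in TPC1, and 2.34 and 1.81 against 8.64 and 9.59 in K1, log2 fold changes of 3.41 and 2.14. The nectin gene *PVRL4* rose by 5.53 in TPC1 and 3.69 in K1, while *PVRL3* changed by −1.07 and the actin linker *VCL* by −1.47 in TPC1. Nutlin alone also raised *ARVCF* and *PVRL4* in both lines and lowered *PVRL3* and *VCL* in TPC1. GSK2830371 alone raised *ARVCF* in K1. Against nutlin, the combination was called lower for *VCL* in TPC1 and higher for *ARVCF* in K1.

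Of 14 factors that drive or oppose epithelial-mesenchymal transition, the combination raised 1 and lowered 3 of 8 tested in TPC1, and raised 1 and lowered 1 of 10 in K1, against the same shares of all genes. The raised gene was in both lines *ESRP1*, an epithelial splicing factor with at most 13 counts per library in TPC1 and 11 in K1. *SNAI1*, a repressor of E-cadherin, had 12.9 and 15.0 CPM under DMSO and 1.49 and 3.49 under the combination in TPC1 (log2 fold change −2.45). *ZEB1* changed by −0.61 in TPC1 and *TWIST1* by −0.66 in K1, all called. Nutlin alone also lowered *SNAI1* and *ZEB1* in TPC1, and GSK2830371 alone lowered *ZEB1* in K1. *CDH1* stayed at 0 to 2 counts in every library. Of the genes for the processing of cadherins, the sheddase *ADAM10* was lowered in TPC1 (−0.95) and was not called against DMSO under the combination in K1 (−0.32). Of 5 mesenchymal marker genes tested in TPC1, out of 6 listed, the combination lowered 4, with a summed level of 5714 to 7558 CPM against 6928 to 7655 under DMSO and *COL1A2* at 0 or 1 count. Of 5 epithelial markers it lowered 1 (*KRT18*) and raised 0, with a summed level of 433 to 511 CPM against 776 to 930 under DMSO. Of all genes 21.7% were lowered, and the part of either list in the cadherin values was not tested.

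Among 12 further cadherins of the type I, type II and 7D groups, 4 were tested in TPC1 and 6 in K1. Compared with DMSO, the combination raised 1 and lowered 0 in TPC1, against 22.5% and 21.7% of all genes. In K1 it raised 1 and lowered 1, against 7.62% and 8.09%. The raised gene in both lines was *CDH10*, a type II cadherin of brain. It had 3 and 9 counts under DMSO and 573 and 1109 under the combination in TPC1 (0.0793 and 0.126 against 16.1 and 18.8 CPM), and 1.75 and 1.57 against 19.7 and 22.5 CPM in K1. Nutlin alone gave 13.2 and 14.9 CPM in TPC1 and 16.7 and 14.0 in K1, and GSK2830371 alone left it at 1 and 7 counts in TPC1. The log2 fold change of *CDH10* under the combination was 7.27 ± 0.231 in TPC1 (adjusted p = 1.3e-08 in edgeR) and 3.67 ± 0.165 in K1 (adjusted p = 1.3e-09 in edgeR). *CDH10* was not called under GSK2830371 alone in either line, and *CDH24* was lowered by the combination in K1 (−0.68). Nutlin alone raised 2 of the 4 in TPC1, *CDH10* and *CDH17*, against 17.5% of all genes. Compared with nutlin, the combination lowered 1 of the 4 in that line, *CDH17*, where 5.66% of all genes were lowered.

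Over all 16 libraries, the 5 genes whose log2(CPM + 0.5) followed *CDH6* most closely among 11621 genes were *PDPN*, *GBP2*, *FAM171A1*, *ZHX2* and *SAMD15*, with Pearson correlations of 0.992 down to 0.986. The libraries fall into 2 lines far apart in *CDH6*, which these points share, so the values within a line are also given, each over 8 libraries and as a description. *PDPN*, a membrane glycoprotein of lymphatic endothelium and migrating cells, gave 0.962 in TPC1 and 0.860 in K1. *FAM171A1* gave 0.978 and 0.461, and the other 3 lay between 0.942 and 0.971 in TPC1 and 0.648 and 0.761 in K1. Rank correlations within TPC1 were lower for all 5, down to 0.595 for *GBP2*, whose mean level was 2.18 CPM under DMSO, 2.30 under nutlin, 2.13 under GSK2830371 and 0.727 under the combination. By rank correlation over all 16 libraries only 1 of the 5 was again among the first 5. *PDPN* had a mean of 92.0 CPM under DMSO, 65.4 under nutlin, 62.6 under GSK2830371 and 35.0 under the combination in TPC1, a much shallower fall than that of *CDH6*.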

How the data were processed

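Polyadenylated, strand-specific libraries were sequenced with single reads. The authors aligned them to GRCh37 with TopHat2 2.0.13 and counted reads per gene with HTSeq 0.6.1 (versions per the submitters' processing notes), so each deposited value is a raw count, and counting was strand-aware. The columns of all 16 samples were used, with 0 left out. The 4 TPC1 columns numbered 3, a number the sample labels do not carry, were assigned to their treatment only.

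Members and lists were chosen with earlier results of these data known. Counts were scaled by TMM and fitted in edgeR 4.0.16 (R 4.3.3, limma 3.58.1), with the 8 libraries of a line fitted together by treatment and all 16 for differences between lines. Genes above 0.1 CPM in at least 2 libraries were tested with Benjamini-Hochberg adjustment over all of them, and called at an adjusted p under 0.05 and above 1.5-fold. Fits with DESeq2 1.42.0, other scalings and filters, the compared groups alone, a replicate block and each library left out were alternatives, and an offset for GC content and transcript length and a crossed block were added after seeing the data. TPC1 replicate numbers pair the libraries, since the deviations of same-numbered libraries correlated at 0.494 to 0.698 across 12318 genes in all 6 pairs of treatments. The main fits leave this pairing out, and their errors and p-values are unpaired. With the replicate number as a block, the calls of *CDH2*, *CDH4* and *CDH6* between treatments in TPC1 were all kept. The fits were tested on simulated data. Named beside all members are the 5 genes most correlated with *CDH6*, 3 catenins, and up to 4 called genes per list with at least 5 CPM in the higher group. Some genes of the lists are not reported here. Gene positions and transcript lengths came from GENCODE for GRCh37 and the promoter from RefSeq for GRCh38.p14. Figures were drawn with matplotlib 3.10.9.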

Additional observations from a re-analysis of the deposited data

Results flagged for a closer look

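The difference between the lines in the response of *CDH2* was past the threshold in 2 comparisons. Under nutlin, the log2 fold change of *CDH2* was 0.99 higher in K1 than in TPC1 (adjusted p = 4.7e-06 in edgeR), with a level of 21.7 CPM under DMSO and 9.14 under nutlin in TPC1 and of 101 and 85.1 CPM in K1, as means of 2 libraries. Under the combination it was 0.62 higher (adjusted p = 0.00028 in edgeR), with 11.5 CPM in TPC1 and 82.9 in K1. Both nutlin libraries of each line were below both DMSO libraries, and so were both combination libraries. The smaller response in K1 is not particular to *CDH2*. Nutlin called 5423 of 15273 genes in TPC1 and 1474 of 15900 in K1. *CDKN1A* and *MDM2* also responded less in K1 to nutlin and to the combination. Whether *CDH2* differs beyond this was not tested.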

How the results depend on the processing

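Counts of called cadherins are small, so 1 gene moves them. In TPC1, the number raised by the combination against GSK2830371 was 0 in place of 1 with library size alone, with filterByExpr, with no filter, by DESeq2 and with the replicate block, and the number lowered against nutlin was 1 in place of 0 with no filter and with the block. The interaction in TPC1 raised 1 with the block and with the GC and length offset, and the combination against GSK2830371 in K1 lowered 1 (*CDH11*) with that offset. The higher response of *CDH2* to the combination in K1 was no longer called with no filter (0.58, which leaves 0 raised). Leaving out 1 library gave 1 to 2 lowered in TPC1 under nutlin, 0 to 1 raised and 1 to 2 lowered under the combination against DMSO, 0 to 1 each way against nutlin, and 0 to 1 raised and 1 to 2 lowered against GSK2830371. Between the lines it gave 1 to 2 raised for nutlin and 0 to 1 each way for the combination against DMSO. The value of *CDH6* under nutlin in K1 was −0.09 and turned to 0.15 without DMSO replicate 1 and to 0.096 without nutlin replicate 1, in a range of −0.30 to 0.15 over libraries left out. The cause of these shifts was not tested. Of 34 counts under all alternatives, 597 values stayed within 1.5 times and 29 moved. The replicate block changed no other count of called cadherins by over 1.5 times. In K1 same-numbered libraries correlated at −0.359 to −0.289 in the 3 pairs with DMSO and at 0.146 to 0.379 in the other 3, so not every pair is positive and they are taken to share only a number. The block left 1 cadherin lowered by GSK2830371 and 0 called in each other comparison of that line. A block in which the numbers of the DMSO libraries were exchanged, chosen after seeing these correlations, gave the same counts of cadherins. Counts over all genes moved most for GSK2830371 alone (raised and lowered, 14 to 239 and 8 to 241 in TPC1, 58 to 157 and 52 to 518 in K1, 30 to 178 and 23 to 600 for the difference between lines) and for the interaction (152 to 714 and 193 to 859 in TPC1, 13 to 584 and 7 to 162 in K1). For the combination against nutlin, the raised genes were as few as 655 of 986 in TPC1 and 87 of 184 in K1, the lowered as few as 140 of 242 in K1, and the higher responses in K1 as few as 267 of 428. A library left out leaves a group with 1 sample, assumed to vary like the others. With 2 libraries per group and few counts, *CDH1*, *CDH5* and *CDH3* could not show small changes.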
